A study of Mus musculus with 6 samples.

Results

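The genes that set the pace of the G1 to S transition were examined in ATAC-seq peak lists of neonatal mouse testis cells enriched for spermatogonia. They comprised the D-type cyclins Ccnd1, Ccnd2 and Ccnd3, the CIP/KIP inhibitors Cdkn1a and Cdkn1b, the INK4 inhibitors Cdkn2a, Cdkn2b, Cdkn2c and Cdkn2d, and the retinoblastoma gene Rb1. These 10 genes were chosen by name from 21436 protein-coding genes whose 5′ end was known, and all 10 were found. For each gene, every peak between 10 kb upstream of its 5′ end and 10 kb past its 3′ end was taken, and the sequence within 3 kb of the 5′ end was called its promoter. Peaks of the 6 lists that overlapped or touched were merged into regions, which gave 63 regions in the windows of the 10 genes, out of 158725 genome-wide. A region was kept, with its calls in all libraries, where at least 1 peak reached into the window.

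ATAC-seq uses the Tn5 transposase to cut and tag accessible DNA, so a peak marks sequence that was open in some of the cells. Cells came from testes of 129S1/Sv mice at postnatal day 5, with 50000 cells per library. They were 3 libraries of Sirt7-/- mice (S7KO), which lack the chromatin deacetylase SIRT7 in all tissues, and 3 of wild-type (WT) mice, and the single contrast asked whether its loss altered chromatin accessibility. Libraries carried the replicate numbers 1, 2 and 4 in each genotype, and values are given in that order, S7KO before WT. The study describes the libraries as independent biological replicates. In such bulk samples, a site open in few cells and a site weakly open in all cells cannot be told apart.

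Entry into the cell cycle is driven by D-type cyclins, which bind CDK4 and CDK6 and start the phosphorylation of RB1, the pocket protein that holds E2F transcription factors in check. INK4 proteins bind CDK4 and CDK6 directly, whereas CIP/KIP proteins bind cyclin-CDK complexes and restrain CDK2. Spermatogonia divide by mitosis to maintain the germ line, and CCND2 is well known for its role in germ cells and gonadal tumours.

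Between 105754 and 133695 peaks were listed per library, and WT replicate 2 held the fewest. The S7KO lists held 127058 ± 6810 peaks and the WT lists 119454 ± 13978 (SD, 3 libraries a genotype). Read depth is unknown, so the number of peaks is the only guide to it here. The germ line markers fixed for the check had a promoter peak in all 6 libraries at 10 of 10 genes. Markers of somatic testis cells were also open, at 5 of 5 Sertoli, 4 of 5 Leydig, 3 of 3 peritubular myoid and 3 of 4 endothelial genes and at 2 of 4 macrophage and blood genes, Csf1r and Cd68, while Adgre1 and Ptprc of that list had none in any library. The same genes can be open in germ cells, and the part of somatic cells in the values below was not tested. Sirt7 itself had a promoter peak in all 6 libraries, so its promoter gave no check of the genotype labels, and peaks elsewhere in the gene were not examined.

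Every one of the 10 genes had a promoter peak in all 6 libraries, against 74% of all protein-coding genes. A peak lay over the listed 5′ end itself in all 6 libraries at 9 of the 10, the exception being Cdkn1a, against 59.7% of all genes. The map of peaks by distance from the 5′ end shows how alike the 6 libraries were at these genes.

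**Figure D1:**
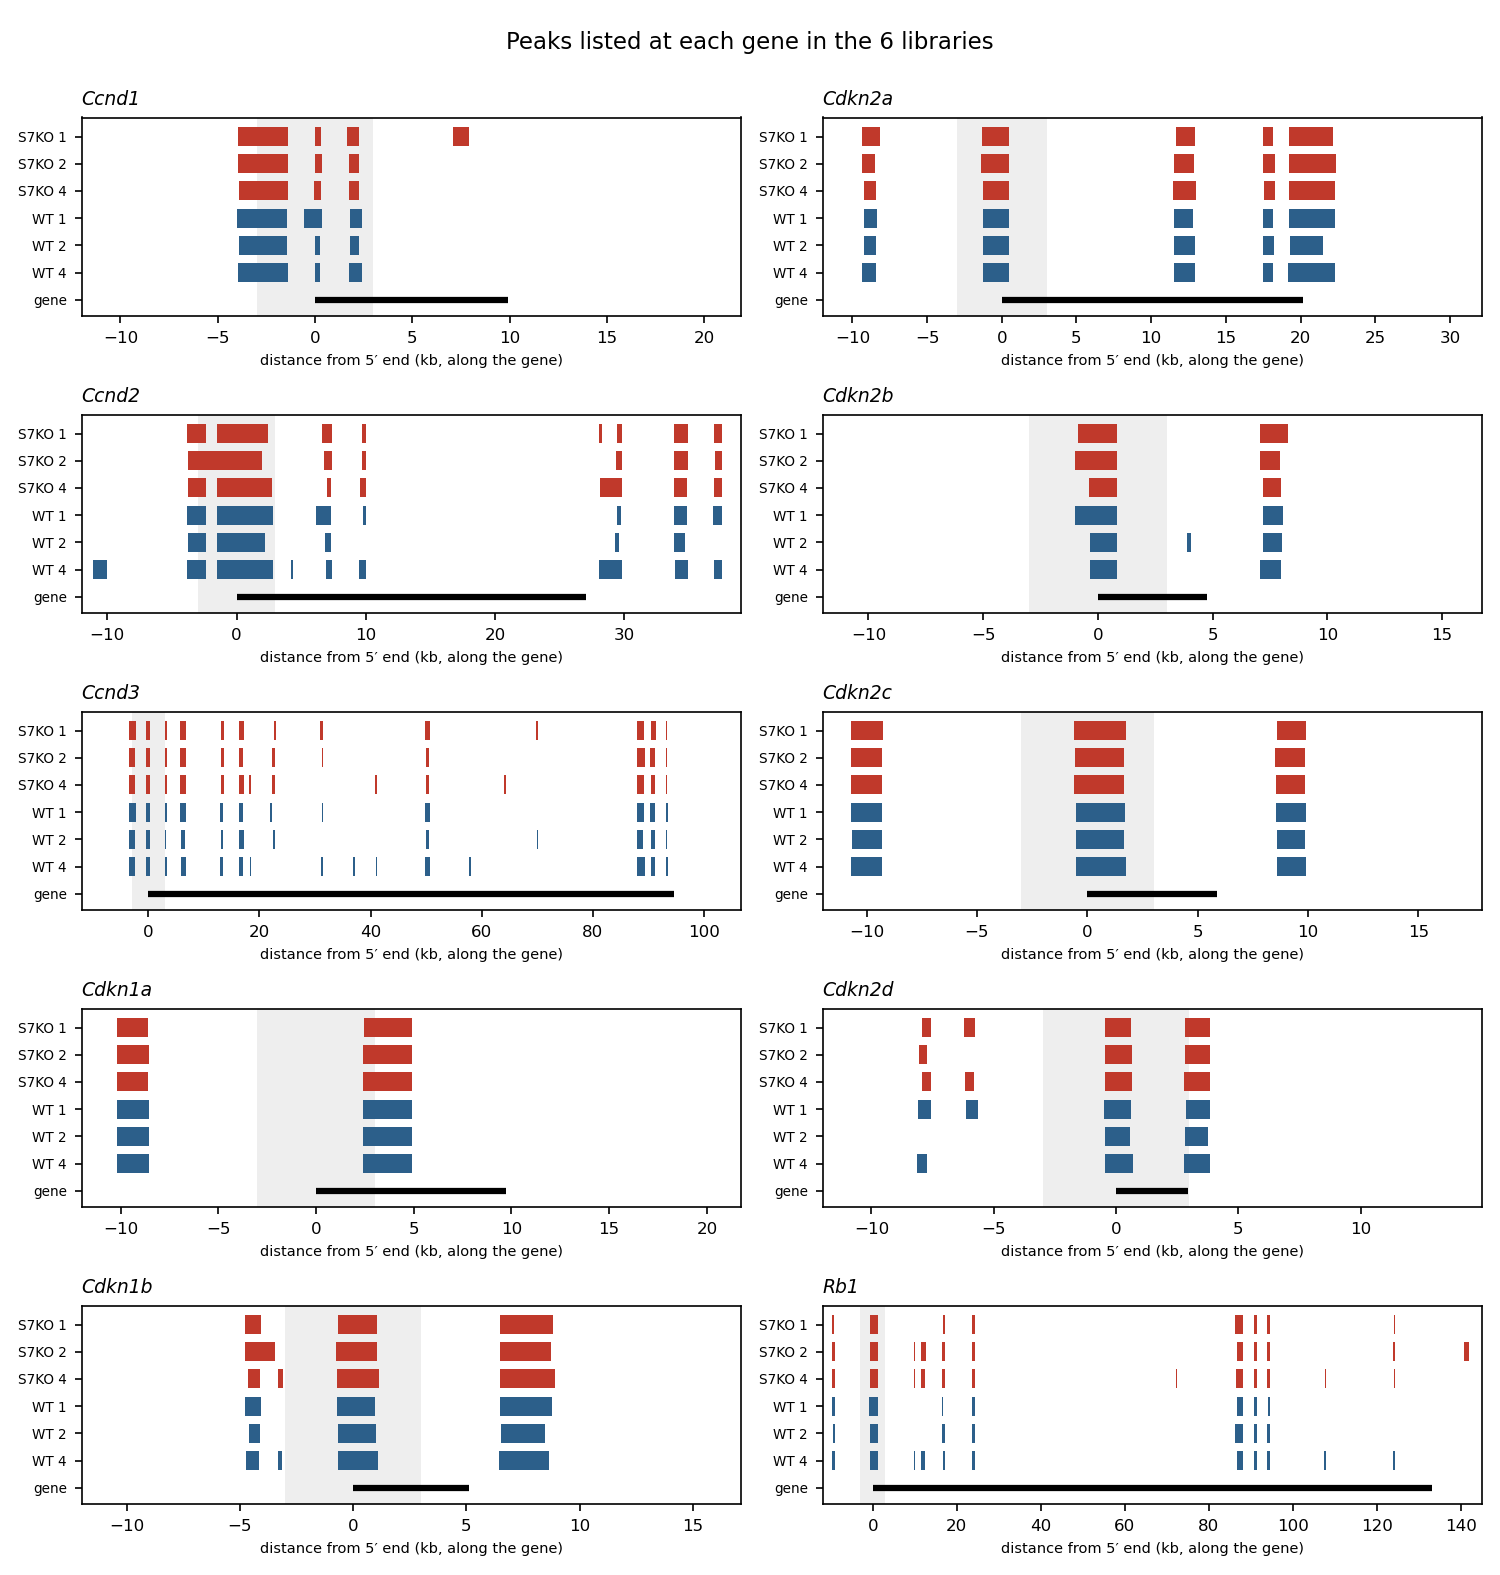
Peaks listed at each of the 10 genes in the 3 S7KO (red) and 3 WT (blue) libraries, plotted by distance in kb from the 5′ end along the direction of transcription. The black bar is the gene and the grey band the promoter within 3 kb of the 5′ end. The peak pattern recurs across the 6 libraries, and the regions that come and go are narrow ones, mostly inside Ccnd3 and Rb1.

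The D cyclins differed widely from each other in how much promoter sequence was open. Ccnd2 (chr6:127125162-127152188, minus strand) had the broadest promoter. Its peaks covered 4642, 4936 and 4930 bp of promoter in S7KO and 4976, 4356 and 4933 bp in WT, a mean of 79.9% of the 6-kb interval. The genotypes overlapped, with WT replicate 2 lowest. In mean covered length Ccnd2 stood in place 1 of all 21436 genes, and it held places 1 to 7 within the single libraries. The median gene had 1248 bp and the 99th percentile was 3238 bp. The next gene in this order was Fst at 4766 bp, so the lead of Ccnd2 was small. With an equal number of peaks taken from every list Ccnd2 remained in place 1.

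The breadth at Ccnd2 came from a merged region of 6635 bp (chr6:127149388-127156022). In 5 of the 6 libraries it held a peak of 3722 to 4314 bp over the 5′ end and a separate peak farther upstream, and in S7KO replicate 2 a single peak of 5709 bp spanned both. Despite this breadth the peak over the 5′ end ranked low. Peaks were ranked within their own list by the −log10 q-value that the authors' peak caller assigned, so that 0% is the strongest and 100% the weakest. The peak over the Ccnd2 5′ end ranked at 53.9%, 40.0% and 43.1% in S7KO and 55.7%, 49.7% and 52.4% in WT. The peak caller averages its values over a broad peak. Peaks of 4000 bp or wider had median ranks of 36.2% to 44.4% in the 6 lists. Those of 2000 to 4000 bp had 28.3% to 30.6%, and those of 1000 to 2000 bp had 26.2% to 27.7%. In every library the peak over the Ccnd2 5′ end ranked worse than the median for peaks of 4000 bp or wider. It was 3981 bp wide in S7KO replicate 1 and 3722 bp in WT replicate 2. Whether its width affected its rank was not tested. A further region upstream of Ccnd2 (chr6:127162183-127163403) ranked better, at 8.19% to 20.9%, and a region past its 3′ end (chr6:127117292-127118384) ranked at 14.4% to 26.4%. Both were called in all 6 libraries, but the upstream one lies at the edge of the window, which only the peak of WT replicate 4 reached.

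**Figure D2:**
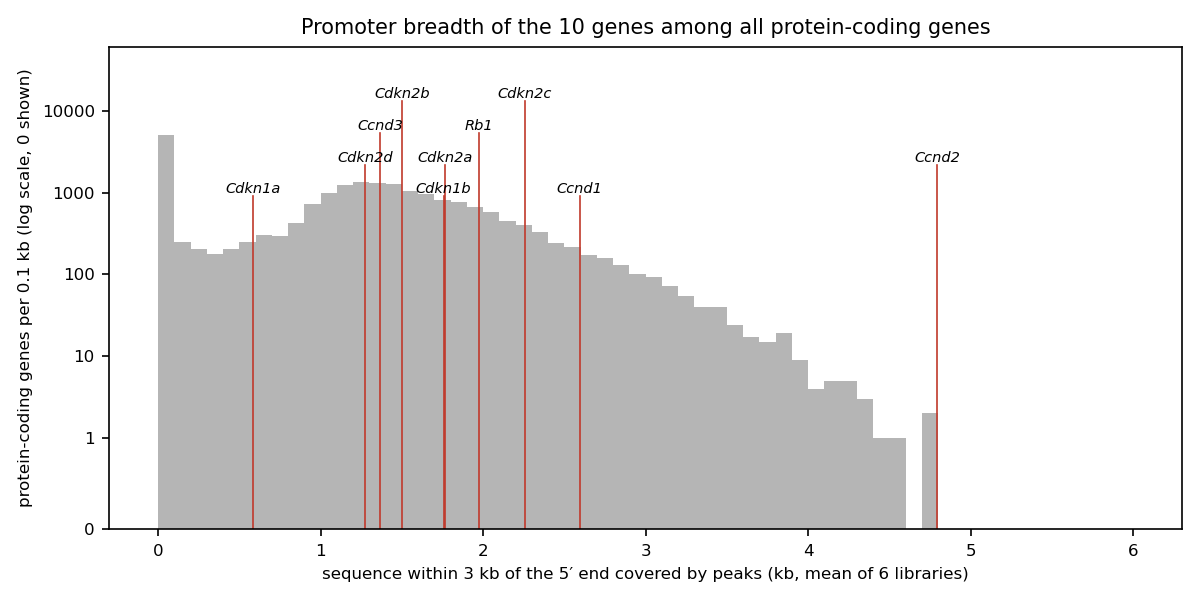
Mean promoter sequence covered by peaks in the 6 libraries (kb), with grey bars for the number of protein-coding genes in each 0.1-kb bin on a logarithmic axis and red lines for the 10 genes. Ccnd2 lies at the far right of the distribution at 4796 bp, and Cdkn1a at 582 bp is the lowest of the 10.

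Ccnd1 (chr7:144929931-144939831, minus strand) had its open promoter sequence mostly away from the 5′ end. Covered promoter length was 2561, 2543 and 2488 bp in S7KO and 3125, 2313 and 2537 bp in WT, and the WT values enclosed those of S7KO. Most of it lay in an upstream region at chr7:144941208-144943840, called over 2441 to 2599 bp and ranked at 21.3% to 27.7%. The peak over the 5′ end (chr7:144939463-144940382) was narrow, at 316, 391 and 345 bp in S7KO and 905, 270 and 275 bp in WT. WT replicate 1 thus stood apart from the other 5 libraries there. Another promoter region, chr7:144937414-144938194, ranked at 22.3%, 20.3% and 21.6% in S7KO, and worst in WT replicate 1, at 37.4%.

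Ccnd3 (chr17:47505051-47599689, plus strand) combined a modest promoter with the largest number of regions, 18 in its window. Promoter peaks covered 1525, 1396 and 1287 bp in S7KO and 1358, 1298 and 1333 bp in WT, and the genotypes overlapped. The strongest promoter region (chr17:47501556-47502769, ranks 0.338% to 1.41%) lay within 3 kb of the 5′ end of the neighbouring gene Taf8 as well, so it cannot be assigned to Ccnd3 alone. The peak over the listed Ccnd3 5′ end ranked at 22.9%, 20.7% and 21.3% in S7KO and 24.2%, 19.5% and 28.1% in WT. RefSeq lists a second start for Ccnd3 far inside the gene, and the peak there ranked better in every library, at 9.88%, 10.3% and 6.81% in S7KO and 9.72%, 8.64% and 8.85% in WT. Inside the gene, the region chr17:47510822-47511836 was among the strongest of all 63 (ranks 1.53% to 3.71%), and chr17:47554866-47555760 ranked at 6.97% to 14.0%.

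The sequences around both Ccnd3 starts are shown because the stronger peak lay over the internal one. They are RefSeq promoter sequences on GRCm38.p6, running from 250 bases before to 50 bases after the start, 5′ to 3′. Here and below, capitals mark the motifs searched on both strands, which were the GC box GGGCGG, the CCAAT box CCAAT, the E2F motif TTTNNCGC, the cAMP response element and the p53 response element with at most 1 mismatch. The TATA box TATAAA and its variant TATAAG were searched as well and are not capitalised.
Ccnd3 upstream start (chr17:47504801-47505100, plus strand): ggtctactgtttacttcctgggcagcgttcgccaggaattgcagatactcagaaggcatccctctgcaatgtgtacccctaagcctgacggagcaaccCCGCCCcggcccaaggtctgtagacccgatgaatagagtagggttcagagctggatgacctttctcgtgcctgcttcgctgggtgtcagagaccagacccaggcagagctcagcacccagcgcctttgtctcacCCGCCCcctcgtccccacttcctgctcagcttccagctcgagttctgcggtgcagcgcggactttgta
Ccnd3 internal start (chr17:47593217-47593516, plus strand): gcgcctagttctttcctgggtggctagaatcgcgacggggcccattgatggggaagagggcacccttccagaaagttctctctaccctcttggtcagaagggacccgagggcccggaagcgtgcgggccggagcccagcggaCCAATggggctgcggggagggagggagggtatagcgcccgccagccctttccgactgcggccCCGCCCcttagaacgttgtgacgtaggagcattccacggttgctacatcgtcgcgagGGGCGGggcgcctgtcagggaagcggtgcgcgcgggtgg
The upstream window held 15 CpG dinucleotides and 2 GC boxes, and the internal window 28 CpG, 2 GC boxes and 1 CCAAT box. Among 32851 listed mouse promoters, 35.7% held a GC box and 37.4% a CCAAT box, so these matches are common. Peaks covered all 300 bases of both windows in all 6 libraries.

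Among the CIP/KIP inhibitors, Cdkn1a (chr17:29090979-29100722, plus strand), which encodes p21 and is a classical p53 target, was the only gene of the 10 without a peak over its listed 5′ end. Its promoter coverage, 564, 584 and 587 bp in S7KO and 592, 582 and 582 bp in WT, was the lowest of the 10 and did not reach that of the next gene, Cdkn2d, in any library. This sequence belonged to a region that began 2409 bp downstream of the listed 5′ end (chr17:29093388-29095902). It was called over 2486 to 2501 bp in the 6 libraries and ranked at 5.69% to 9.55%. RefSeq lists 2 starts for Cdkn1a, and the region lay over the second one. No base of the 300-base window at the first start was covered in any library, whereas all 300 bases at the second were covered in every library. Both windows are shown for that contrast.
Cdkn1a upstream start (chr17:29090729-29091028, plus strand): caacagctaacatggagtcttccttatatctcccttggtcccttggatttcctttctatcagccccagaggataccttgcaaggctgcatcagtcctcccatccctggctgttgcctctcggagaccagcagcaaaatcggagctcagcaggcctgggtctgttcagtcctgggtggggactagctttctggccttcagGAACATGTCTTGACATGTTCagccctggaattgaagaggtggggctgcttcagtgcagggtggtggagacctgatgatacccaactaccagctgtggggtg
Cdkn1a downstream start (chr17:29093519-29093818, plus strand): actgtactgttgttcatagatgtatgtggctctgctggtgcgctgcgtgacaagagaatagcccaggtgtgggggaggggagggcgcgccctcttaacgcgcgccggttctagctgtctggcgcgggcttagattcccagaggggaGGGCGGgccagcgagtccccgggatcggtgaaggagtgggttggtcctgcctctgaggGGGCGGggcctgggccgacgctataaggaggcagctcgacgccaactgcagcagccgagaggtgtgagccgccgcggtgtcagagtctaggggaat
The uncovered window contained 2 CpG (observed to expected ratio 0.0892) and no GC box, and its single capitalised run is a match to the p53 response element, which occurred in 58 of the 32851 listed promoters (0.177%). The covered window contained 23 CpG (ratio 0.786) and 2 GC boxes. Each of both windows held 1 TATAAG, as did 7.43% of the listed promoters, and none of the printed windows held a TATAAA. Over all listed promoters, those covered in all 6 libraries (50.5%) had a median of 20 CpG and those covered in none (43.3%) a median of 3. The absence of a peak says nothing about whether p53 binds there. A further region upstream of Cdkn1a, chr17:29080803-29082433, was called in all 6 libraries at ranks of 37.9% to 47.5%.

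Cdkn1b (chr6:134920401-134925525, plus strand) encodes p27. Its single promoter region (chr6:134919644-134921555) covered 1742, 1821 and 1865 bp in S7KO and 1697, 1661 and 1752 bp in WT, and ranked at 3.90% to 6.16%. Only WT replicate 4 lay above the lowest S7KO value. A region past its 3′ end (chr6:134926852-134929293) was almost as strong, at ranks of 6.13% to 9.99%. An upstream region (chr6:134915617-134916926) varied more, covering 672, 1310 and 524 bp in S7KO and 698, 520 and 579 bp in WT, with S7KO replicate 2 alone above the others.

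The INK4 inhibitor genes differed in the rank of their best promoter peak. Its median over the 6 libraries was 0.394% at Cdkn2d, 2.98% at Cdkn2b, 5.13% at Cdkn2c and 8.91% at Cdkn2a. Over the 15863 genes with a promoter peak in all 6 libraries the median was 8.05%, so Cdkn2a was ordinary in this respect. Cdkn2d (chr9:21288459-21291421, minus strand), which encodes p19INK4d, had the best median rank of the 10 genes, although its ranks overlapped those of the region shared by Ccnd3 and Taf8, which ranked better in replicate 4 of both genotypes. The peak over its 5′ end (chr9:21290720-21291897) ranked at 0.255%, 0.296% and 0.881% in S7KO and 0.492%, 0.249% and 1.47% in WT. The 5′ end of Kri1 lies within 3 kb, close to a second promoter region (chr9:21287579-21288628). Covered promoter length was 1238, 1303 and 1325 bp in S7KO and 1231, 1184 and 1365 bp in WT. These values overlapped and lay near the median of all genes, so Cdkn2d was ordinary in breadth and high in rank. Of 2 upstream regions, chr9:21298970-21299575 was called in 5 libraries and chr9:21297057-21297622 in 3. The promoter sequence is given as that of the best-ranked peak, around the RefSeq start 21291209, which lies slightly downstream of the 5′ end used for the window (21291421).
Cdkn2d (chr9:21291160-21291459, minus strand): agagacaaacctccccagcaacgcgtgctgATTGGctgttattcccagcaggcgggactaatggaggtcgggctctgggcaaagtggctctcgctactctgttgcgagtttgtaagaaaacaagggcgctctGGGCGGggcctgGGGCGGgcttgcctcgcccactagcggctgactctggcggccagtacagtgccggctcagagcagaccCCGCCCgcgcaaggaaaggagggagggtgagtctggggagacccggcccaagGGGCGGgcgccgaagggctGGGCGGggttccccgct
It held 5 GC boxes, 1 CCAAT box and 22 CpG.

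Cdkn2a and Cdkn2b are neighbours on chromosome 4. Cdkn2a (chr4:89274473-89294619, minus strand) encodes p16INK4a and p19ARF from different first exons, the ARF exon being the upstream one. RefSeq lists a start for each, and both were covered by peaks over all 300 bases in all 6 libraries. At the upstream start the peak ranked at 9.46%, 9.46% and 7.47% in S7KO and 8.37%, 11.5% and 7.34% in WT. At the internal start it ranked at 35.5%, 28.0% and 35.7% in S7KO and 30.9%, 37.8% and 30.0% in WT. The upstream start thus ranked better in every library, without overlap. Both windows are shown because 1 gene is read from both.
Cdkn2a upstream start (chr4:89294570-89294869, minus strand): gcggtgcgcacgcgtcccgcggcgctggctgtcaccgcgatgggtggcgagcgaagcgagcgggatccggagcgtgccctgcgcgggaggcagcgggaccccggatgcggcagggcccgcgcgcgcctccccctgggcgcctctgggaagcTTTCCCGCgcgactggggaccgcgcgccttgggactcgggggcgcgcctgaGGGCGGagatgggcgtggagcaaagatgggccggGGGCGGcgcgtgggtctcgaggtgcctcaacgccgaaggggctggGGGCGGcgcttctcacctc
Cdkn2a internal start (chr4:89282143-89282442, minus strand): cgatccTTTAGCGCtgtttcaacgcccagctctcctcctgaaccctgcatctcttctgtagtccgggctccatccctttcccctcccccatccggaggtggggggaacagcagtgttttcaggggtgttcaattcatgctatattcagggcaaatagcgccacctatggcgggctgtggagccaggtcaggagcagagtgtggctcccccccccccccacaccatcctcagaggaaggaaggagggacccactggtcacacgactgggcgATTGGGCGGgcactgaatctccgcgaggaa
The upstream window held 45 CpG and 3 GC boxes, and the internal window 12 CpG and 1 GC box that overlaps a CCAAT box in reverse. Each held 1 match to the E2F motif, which was present in 5.17% of all listed promoters.

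Promoter coverage of Cdkn2a was 1820, 1826 and 1756 bp in S7KO and 1788, 1696 and 1714 bp in WT, with overlap. A region of 3171 bp at the 3′ end of the gene (chr4:89272265-89275435) was called over 2923, 3117 and 3087 bp in S7KO and 3081, 2238 and 3132 bp in WT, so WT replicate 2 fell short of the rest. Cdkn2b (chr4:89306289-89311032, minus strand), encoding p15INK4b, had a promoter region (chr4:89310179-89312049) that ranked at 2.14% to 3.98%. It came in a wide and a narrow form that did not follow genotype, with 1732, 1857 and 1212 bp in S7KO and 1828, 1183 and 1188 bp in WT. The extra sequence lay upstream, where the peak began 878, 1017 and 382 bp before the 5′ end in S7KO and 996, 353 and 358 bp in WT, while its other edge varied only from 829 to 853 bp. The region between both genes, chr4:89302741-89303984, belonged to both windows and ranked at 18.7% to 42.2%.

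Cdkn2c (chr4:109660876-109666756, minus strand), which encodes p18INK4c, had 3 regions, each found in all 6 libraries. Its promoter region (chr4:109665018-109667363) covered 2346, 2261 and 2269 bp in S7KO and 2220, 2190 and 2258 bp in WT. All S7KO values lay above all WT values, the nearest being 3 bp apart. It ranked at 4.57% to 6.29%. A downstream region (chr4:109656870-109658242) ranked at 4.45% to 6.17%, and an upstream region at the 5′ end of Faf1 (chr4:109676035-109677477) at 1.22% to 2.67%.

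Rb1 (chr14:73192858-73325951, minus strand) is the longest of the 10 genes and had 13 regions in its window. The promoter region (chr14:73324640-73326861) covered 1939, 1952 and 1973 bp in S7KO and 2216, 1869 and 1909 bp in WT, so WT replicate 1 was highest and the genotypes overlapped. Its ranks were 16.6%, 12.4% and 9.71% in S7KO and 16.3%, 15.7% and 9.13% in WT. Inside the gene the best-ranked region was chr14:73301551-73302421, at 16.6% to 24.3%. The region chr14:73237745-73239651 lay at the 5′ end of Lpar6, a receptor gene nested within Rb1. The regions chr14:73315831-73316279 and chr14:73313399-73314532 were both called only in S7KO replicates 2 and 4 and WT replicate 4, which are also the libraries with the most listed peaks. The region chr14:73201487-73202004 was listed by every S7KO library and by WT replicate 4, with ranks of 29.9% to 60.4%.

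**Figure D3:**
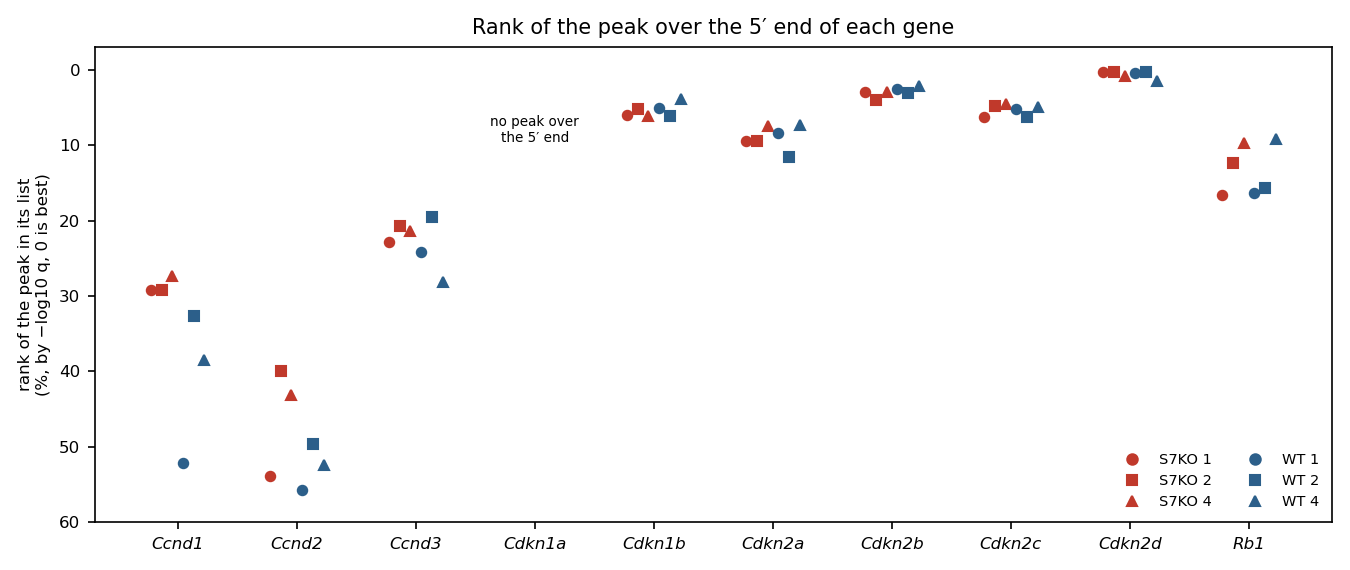
Rank of the peak over the listed 5′ end of each gene within its own list (percent, 0 is the strongest) for the 3 S7KO (red) and 3 WT (blue) libraries, with symbols for replicate numbers. Cdkn2d lies between 0.249% and 1.47%, Ccnd2 between 40.0% and 55.7%, and Cdkn1a has no peak there.

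Most regions were shared by all libraries. Of the 63 regions, 42 (66.7%) were called in all 6, against 57.1% of all regions genome-wide, and 8 were called in 1 library only. All 15 promoter regions were called in every library. In gene bodies 16 of 33 were, upstream 6 of 9 and downstream 6 of 7. These counts take the region between Cdkn2a and Cdkn2b once for each gene. No genome-wide share by location is given, so whether this difference by location is particular to these genes was not tested. The 21 regions missing from at least 1 library had a median width of 447 bp and a median rank of 83.6%, against 1218 bp and 21.9% for the 42 shared ones, and 14 of them lay at Ccnd3 or Rb1. Genome-wide the median widths were 391 bp for regions missing from a library and 1058 bp for shared ones, so this contrast was not particular to these genes. No region was called in all 3 libraries of one genotype and in none of the other, whereas 0.416% of all regions were specific to S7KO and 0.0743% to WT in this way. At 63 regions these shares would give less than 1 region, so the count of 0 carries little weight.

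For the comparison of S7KO with WT, the sequence covered by peaks was taken as a value per library, first over the whole window of the gene with 10 kb on each side. A gene was counted when all 3 values of one genotype lay above all 3 of the other. In this sense 3 of the 10 genes were higher in S7KO, namely Cdkn1b, Cdkn2a and Cdkn2c, and none in WT. Over all genes the shares were 6.35% and 0.508%. The 3 genes were among those chosen by name, and no test over the 10 was made.

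Cdkn1b had the widest of these differences, with 4756, 5395 and 4995 bp in S7KO and 4701, 4150 and 4709 bp in WT. The means were 5049 ± 323 and 4520 ± 320 bp (SD, n = 3 each), a difference of 529 bp (exact permutation test, p = 0.1, adjusted p = 1 over all genes). This difference was 344 bp without WT replicate 2, 355.5 bp without S7KO replicate 2 and 170.5 bp in replicates 1 and 4 only. Cdkn2a had 7915, 7932 and 7943 bp in S7KO and 7634, 6826 and 7873 bp in WT, a difference of 486 bp. WT replicate 2 lay far below the other WT values, and without it the difference was 176.5 bp. Cdkn2c had 4350, 4331 and 4292 bp in S7KO and 4239, 4159 and 4255 bp in WT, a difference of 107 bp. For both the exact permutation test again gave p = 0.1 and an adjusted p of 1. With 3 libraries against 3, p = 0.1 is the smallest value this two-sided exact test can reach, so no gene could pass a threshold of 0.05.

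In the other 7 genes the window values of the genotypes overlapped. Rb1 had the largest difference in means, 1225 bp, with 7348, 9782 and 9207 bp in S7KO and 6757, 6900 and 9004 bp in WT (exact permutation test, p = 0.2). It ranged from 724 bp without S7KO replicate 2 to 1951 bp without WT replicate 4, and was 1941 bp without S7KO replicate 1. In replicates 1 and 4 only, the Rb1 difference was 397 bp. Cdkn1a was the one gene with a lower mean in S7KO, by 37.3 bp, at 3890, 3942 and 3894 bp against 3956, 3944 and 3938 bp. Ccnd2 had 8216, 8153 and 9295 bp in S7KO and 8746, 6743 and 9722 bp in WT, so its values spread more within WT than between genotypes. Ccnd3 had 9023, 8328 and 8573 bp in S7KO and 8561, 7296 and 8977 bp in WT. Ccnd1, Cdkn2b and Cdkn2d likewise overlapped, with differences in means of 156, 237 and 170 bp. The sign of the difference changed at Ccnd1, Ccnd2, Ccnd3 and Cdkn2d when single libraries were left out. Without WT replicate 2 it was −42 bp at Ccnd1, −679 bp at Ccnd2, −128 bp at Ccnd3 and −142.5 bp at Cdkn2d. Ccnd1 also turned to −138 bp without S7KO replicate 1 and Ccnd2 to −219 bp without S7KO replicate 4, and Cdkn2b fell to 34.2 bp without S7KO replicate 1.

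**Figure D4:**
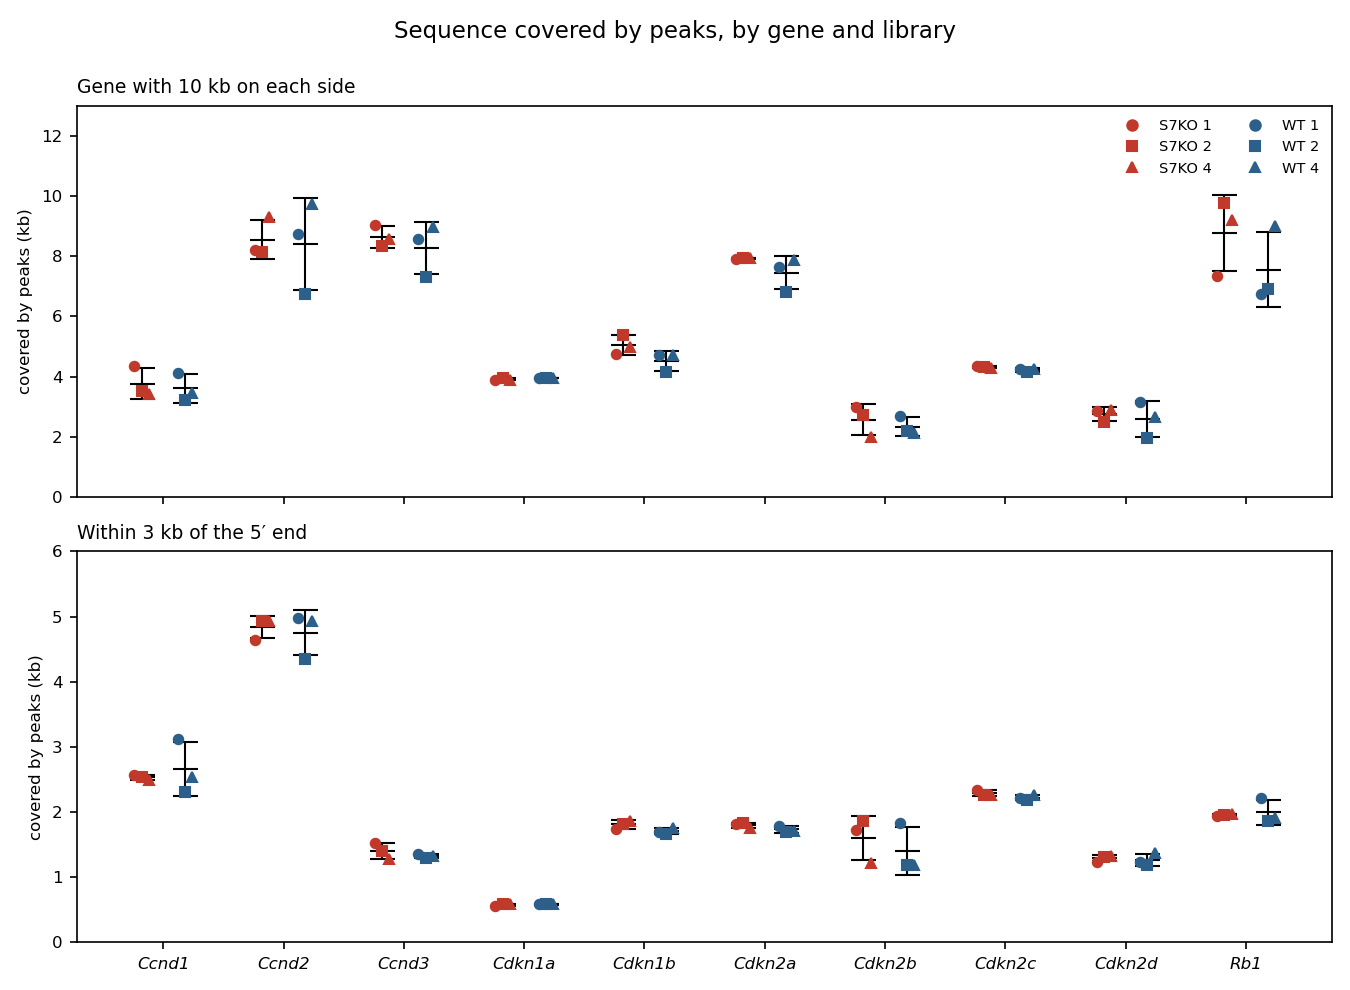
Sequence covered by peaks (kb) at each gene in the 3 S7KO (red) and 3 WT (blue) libraries, over the gene with 10 kb on each side (top) and within 3 kb of the 5′ end (bottom). Black bars are the mean and 1 SD of each genotype and symbols are replicate numbers. WT replicate 2 (blue squares) is the lowest WT library at most genes.

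The S7KO mean was the higher one in 9 of 10 genes. Of all 21436 genes it was higher in 14383 (67.1%), lower in 4119 and equal in 2934. The mean difference was 339 bp over the 10 genes and 288 bp over all genes, with medians of 203 and 131 bp. The difference moved with 1 library. WT replicate 2 listed the fewest peaks, and without it the mean difference was 62.5 bp over the 10 genes and 24.6 bp over all genes. The S7KO mean was then the higher one in 5 of the 10 genes. Of all genes it was higher in 9556 (44.6%) and lower in 8941, and the rest had equal means. Leaving out a library cannot make separate genotypes overlap, so Cdkn1b, Cdkn2a and Cdkn2c were bound to stay separate here. In this setting 6.93% of all genes were higher in every S7KO library and 6.79% in every WT library. The same 3 genes did not overlap when an equal number of peaks was taken from every list, where the share of all genes was 5.60%. Without the flanks, none of the 10 genes was higher in every S7KO library, a setting for which no share of all genes is given.

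Over promoters alone, only Cdkn2c was higher in every S7KO library (exact permutation test, p = 0.1) and no gene in every WT library, against 5.39% and 1.16% of all genes. The mean difference was 44.9 bp over the 10 promoters and 40.0 bp over all promoters. In the rank of the best promoter peak the genotypes overlapped at all 10 genes, whereas S7KO ranks were the higher percentages in 1.24% and WT ranks in 5.22% of 15863 genes. A model across all genes with limma, on log2 of covered length, gave 0 of the 10 genes an adjusted p below 0.05, and none an unadjusted p below 0.05, for windows or promoters. Over all genes it called 3 of 18508 windows and 5 of 16772 promoters, and 3.32% and 3.29% had an unadjusted p below 0.05. For Cdkn1b the window difference was 0.15 on the log2 scale with a 95% interval of −0.07 to 0.38, for Rb1 0.21 with −0.17 to 0.60, and for Cdkn2b 0.12 with −0.28 to 0.52. Each of those intervals holds both signs, so these libraries settled neither the direction nor the size of a change there.

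The wider G1 to S machinery was described by a fixed list. Of its 25 further genes, comprising CDKs, E-type cyclins, pocket proteins, E2F and DP factors and upstream regulators, 24 had a promoter peak in all 6 libraries and 21 a peak over the 5′ end, against the 74% and 59.7% of all genes. Skp2, a ubiquitin ligase subunit that targets p27, had no peak within 3 kb of its listed 5′ end in any library. Cdk6, a partner of the D cyclins, had a promoter peak in all 6 but none over its 5′ end. The median rank of the best promoter peak was 5.23% over those with one, against 8.05% over all genes with one in all 6 libraries. Window coverage was higher in every S7KO library at 3 of 25 genes (6.35% of all genes) and in every WT library at 0 (0.508%). They were Ccne1, encoding cyclin E1, with 2555, 2697 and 2938 bp in S7KO and 1818, 1881 and 2524 bp in WT, Rbl1, encoding the pocket protein p107, at a ratio of 1.15, and Cdk2 at a ratio of 1.10. In promoter coverage the only such gene of the 25 was Tfdp2, a partner of E2F factors, at a ratio of 1.04, against 5.39% of all genes. All had an adjusted p of 1 over all genes by the exact permutation test.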

How the data were processed

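Testis cells of Pnd 5 mice, enriched for spermatogonia by differential plating, were profiled by ATAC-seq in 3 S7KO and 3 WT libraries. The authors trimmed reads with Trim Galore 0.6.6, aligned them to mm10 with Bowtie2 2.4.4.1 and kept unique non-duplicate reads. They removed mitochondrial reads, shifted ends for the Tn5 cut and filtered fragments by size, leaving out the shortest and the longest. Broad peaks were called per library with MACS2 2.2.5. Each deposited list gives a display score, a fold enrichment (a ratio of pileup to local background), a −log10 p-value and a −log10 q-value per peak. Read depth and counts were not used here, so the DiffBind test of the study could not be repeated.

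Gene positions came from RefSeq (GRCm38.p6), and strand from the RefSeq promoter table or, for Ccnd1, Ccnd2 and Rb1, from GENCODE. Covered length per library was compared for 21436 genes with an exact permutation test (two-sided, 20 assignments) and Benjamini-Hochberg adjustment, using Python 3.11.15 and scipy 1.17.1. The alternative test was limma 3.58.1 on log2(covered bp + 200). Scripts were tested on simulated data. Library titles give replicate numbers 1, 2 and 4, and a second label gives other numbers for some libraries. Because the labels differ, the numbers were not used as pairs in the main comparison. Deviations from the genotype means correlated at 0.106, −0.00239 and 0.142 between libraries of the same number. Between libraries of different numbers they correlated at −0.171 to 0.0757.

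The 10 genes, the 25 further genes and the markers were chosen with earlier results of these data known. All 10 genes are named. Of their regions, those described are the promoter regions and the best-ranked shared regions, and of the 25 genes those whose genotypes did not overlap. Skp2, Cdk6 and the other regions named, and the printed sequences at second starts, were chosen after their values were seen. RefSeq promoter sequences were at hand for 7 of the 10 genes.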

Additional observations from a re-analysis of the deposited data

How the results depend on the processing

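The window count of 3 genes higher in every S7KO library fell to 0 when flanks were left out, where Cdkn2c reversed to a difference of −7.67 bp and Cdkn1b had 79.7 bp in place of 529 bp. It was 2 with flanks of 5 kb, and no share of all genes is given for either setting. The same count was 3 to 4 with single libraries left out, where 6.93% to 22.6% of all genes were so called. By the rule used, leaving out libraries can add genes to a count but never remove any. The same holds below for the other counts and for replicate numbers taken as pairs. The window count of genes higher in every WT library was 0, ranged from 0 to 1 with single libraries left out (Cdkn1a without S7KO replicate 2 or WT replicate 4, against 1.45% and 0.952% of all genes), and was 1 (Cdkn1a) in replicates 1 and 4 only, an alternative chosen after seeing the data in which 12.0% of all genes were so called. The promoter count of 1 in S7KO ranged from 1 to 4 with single libraries left out, being 4 without WT replicate 1, 3 without S7KO replicate 4 or WT replicate 4 and 2 without S7KO replicate 1, against 14.9%, 10.7%, 12.3% and 9.80% of all genes. The promoter count in WT was 1 (Ccnd2) in replicates 1 and 4 only, against 12.4% of all genes. S7KO-specific regions numbered 0 to 1, the 1 being the region inside Rb1 at chr14:73201487-73202004 without WT replicate 4. Without WT replicate 2 the mean difference over the 10 promoters was −20.8 bp in place of 44.9 bp. With replicate numbers as pairs (replicate block), 4 windows and 3 promoters were higher in S7KO and 1 window (Cdkn1a) in WT in all 3 pairs, against 18.5%, 14.3% and 1.93% of all genes, and the smallest p of that exact test is 0.25. Of 240 differences of single genes under the alternatives, 233 moved by less than 1 SD, but the spread is wide, and the sign changed with a single library left out in 4 of 10 windows and 5 of 10 promoters. The 233 include settings that changed nothing, such as an equal number of peaks or stricter q-value thresholds at all 10 promoters. They also include changes of sign, such as the Ccnd2 window from 151 to −679 bp without WT replicate 2. The lists carry no read depth, so a missing peak cannot be told from a peak below the threshold.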
